A study of Sus scrofa with 6 samples.

Results

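The windows described here are stretches of 201 bases on the mitochondrial genome that carried small RNA reads in the duodenum of Sutai piglets. They were chosen by their place alone, as every listed record of that length on the mitochondrial chromosome. In 6 libraries 487 of 53269 listed records met this rule, 96 from piglet 524, 81 from piglet 2129, 83 and 85 from the 2 sequencing runs of piglet 512, 98 from piglet 2134 and 44 from piglet 2383. The study compared piglets with the AA and the GG genotype at M307 of FUT1, a fucosyltransferase gene whose product builds the sugar chains that F18 fimbriae of Escherichia coli bind. AA piglets are labelled resistant and GG piglets sensitive to E. coli F18. Piglets 524 and 2129 were AA, and piglets 512, 2134 and 2383 were GG. All 5 were 28 days old, of the Sutai breed and kept alike, and none of the labels names a treatment or infection. Per the labels, 524 and 512 are full sibs, as are 2129 and 2134, while the AA sib of 2383 was not analysed here. The 2 runs of piglet 512 were summed, so the comparison is of 2 AA with 3 GG piglets. Markers of the duodenum were not checked, since the lists name no genes.

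The mitochondrial genome is a small circle with almost no sequence between its genes. It encodes subunits of the respiratory chain (complexes I, III and IV) and of the ATP synthase, together with the 2 rRNAs and the 22 tRNAs with which they are translated. Both strands are copied as long precursors, from which tRNAs are cut out, and the mRNAs and rRNAs that lie between the tRNAs are freed by the same cuts. The control region holds the promoters and an origin of replication, and in pigs it carries a tandem repeat. Absorptive cells of the duodenum depend on respiration for nutrient uptake. Intact mitochondrial mRNAs and rRNAs are longer than the fragments that small RNA libraries hold, so such counts stand for pieces of RNA.

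Windows that show how the lists are anchored, and those with the highest or most recurrent counts, are given below on the plus strand of the deposited mitochondrial record of 16769 bases. In the control region window, at 16039 to 16239, capitals mark the tandem repeat. In the windows of ND2 (3811 to 4011) and COX2 (6927 to 7127), capitals mark the gene from its first base on, which is the central base of the window. In the window at 15251 to 15451, capitals mark the tRNA-Thr gene.
Control region: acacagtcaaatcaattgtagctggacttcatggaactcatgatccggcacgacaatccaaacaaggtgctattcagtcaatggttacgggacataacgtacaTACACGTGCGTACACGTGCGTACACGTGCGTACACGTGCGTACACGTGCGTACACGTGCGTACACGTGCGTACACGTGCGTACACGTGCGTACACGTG
ND2: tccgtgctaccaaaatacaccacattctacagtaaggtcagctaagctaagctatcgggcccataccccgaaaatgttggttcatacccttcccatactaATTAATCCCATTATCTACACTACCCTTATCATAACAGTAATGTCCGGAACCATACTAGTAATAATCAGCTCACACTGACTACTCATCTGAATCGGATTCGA
COX2: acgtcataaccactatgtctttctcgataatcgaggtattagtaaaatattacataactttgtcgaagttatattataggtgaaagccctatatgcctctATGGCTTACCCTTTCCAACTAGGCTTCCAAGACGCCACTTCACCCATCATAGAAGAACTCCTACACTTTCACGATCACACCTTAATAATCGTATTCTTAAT
tRNA-Thr: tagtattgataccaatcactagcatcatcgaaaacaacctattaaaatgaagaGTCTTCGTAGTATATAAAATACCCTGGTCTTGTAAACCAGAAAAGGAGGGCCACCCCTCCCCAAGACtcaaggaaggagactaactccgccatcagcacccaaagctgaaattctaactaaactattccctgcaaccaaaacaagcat

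All 487 windows matched the mitochondrial record at their stated place. They had 407 different starts, of which 350 were found in 1 library only. Together they covered 90.8% of the record, but only 13.1% of its bases lay in a window of every library. The largest gap ran over 567 bases (1795 to 2361) inside 16S rRNA, the RNA of the large mitochondrial ribosome subunit. The next ran over 243 bases (435 to 677) inside 12S rRNA, the RNA of the small subunit. Counts ranged from 5, the lowest that any list holds, to 1455. A gene is called without a window where it holds no window's central base. Such a gene may have had fewer than 5 counts at any place, or its reads may be counted in a window centred in a neighbour. It may also have been left out for a reason the lists do not show.

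Some window centres fell on the first bases of mRNA genes. Of the 487 windows, 14 were centred within 2 bases of the first base of an mRNA gene on the plus strand, which is 2.87% of the windows, whereas such bases make up 0.358% of the record. They belonged to 5 of the 12 genes of that strand. ND2, which encodes a core subunit of complex I, was met exactly in 3 libraries, with 10, 10 and 35 counts. COX2, which encodes the subunit of complex IV that takes electrons from cytochrome c, was met in 4 libraries with 20, 61, 44 and 7 counts. ND3 had 62, 36 and 8 counts in 3 libraries, and ATP8 had 5 counts in 1. The sequences of ND2 and COX2 above show the junction between the lower-case tRNA or spacer and the gene in capitals. No centre lay within 2 bases of the first base of any of the 14 tRNA genes of the plus strand or of the 2 rRNA genes, and 1 centre lay so at the low end of 1 of the 8 tRNA genes of the minus strand, tRNA-Gln, with 28 counts.

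**Figure D1:**
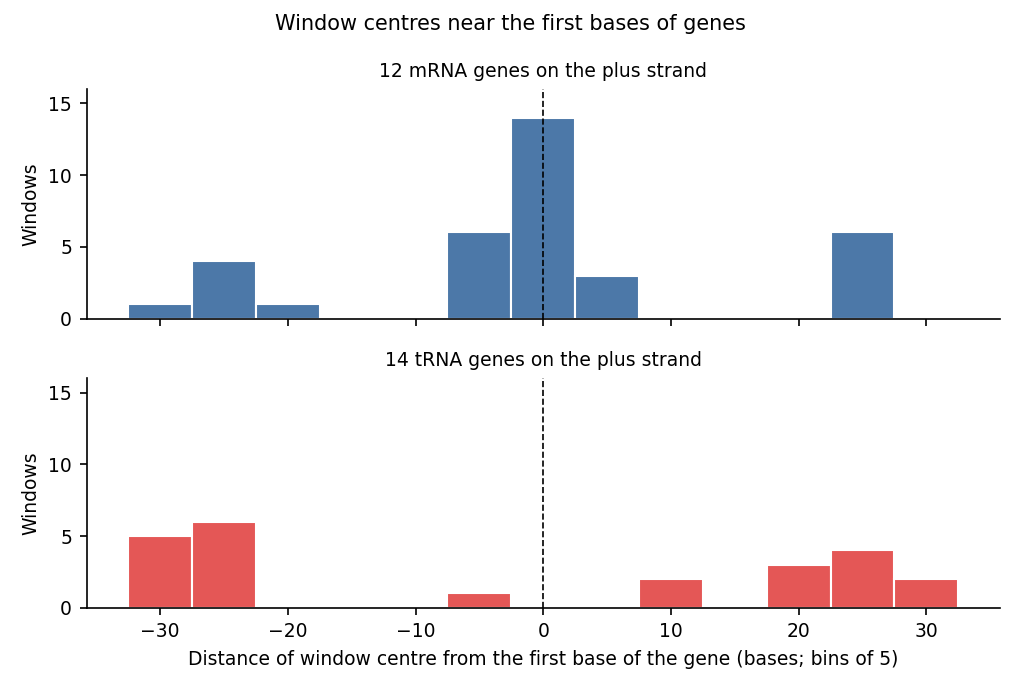
Number of windows, all 6 libraries together, by the distance in bases between the window's central base and the first base of a gene, for the 12 mRNA genes and the 14 tRNA genes of the plus strand (bins of 5 bases). The bin around 0 holds 14 windows for mRNA genes and none for tRNA genes.

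A window with more counts was followed by a longer distance to the next window. In piglet 2129 the 24 windows with at least 100 counts were followed by a median of 320.5 bases, and the 19 windows under 10 counts by 69 bases. In run 1 of piglet 512 the medians were 303 bases after 26 such windows and 78.5 after 12, and in run 2 they were 333 after 21 and 76 after 15. In piglet 524 they were 293 after 7 and 91 after 19, and in piglet 2134 230 after 4 and 89 after 29. Piglet 2383 had no window of at least 100 counts with another after it, and its 29 windows under 10 counts were followed by a median of 117 bases. Spearman's rho between count and distance to the next window, over windows of 1 library that share the same molecule, was 0.42 in piglet 524, 0.77 in 2129, 0.66 and 0.64 in the runs of 512, 0.29 in 2134 and -0.06 in 2383. With the distance to the previous window it was between -0.18 and 0.19. The lists do not state over what length the reads of 1 count were gathered, and it may pass the end of the printed window. Counts were assigned to the gene that holds the central base, so a value given for a gene can include reads of its neighbour. Strand is not given in the lists.

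**Figure D2:**
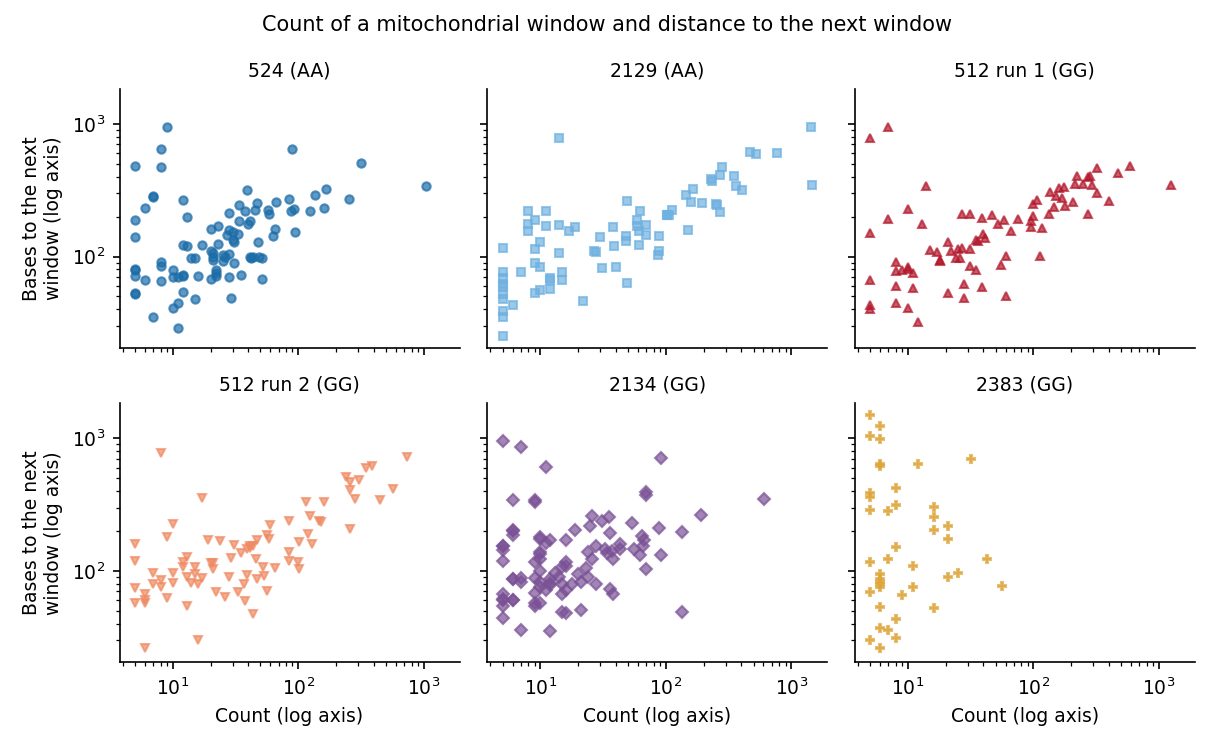
Count of each mitochondrial window (horizontal, log axis) against the bases from its start to the start of the next window of the same library (vertical, log axis), 1 point per window and 1 panel per library. In the libraries of 2129 and 512 the points rise together, with rho between 0.64 and 0.77, and in 2383 they do not, with rho at -0.06.

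The lists are labelled as unannotated sequence, so the shares below are of their listed counts and not of a whole small RNA library. Reads without molecular identifiers are not independent molecules, so the intervals below cover counting error only. Mitochondrial windows held 8.24% of the 56334 listed counts of piglet 524 (95% Wilson interval 8.01 to 8.47) and 8.15% of the 127075 of piglet 2129 (7.9996 to 8.30), both AA. Among GG piglets they held 9.07% of 96244 counts in run 1 of piglet 512 (8.89 to 9.25), 9.34% of 89996 in run 2 (9.15 to 9.53), 1.66% of 192861 in piglet 2134 (1.60 to 1.72) and 1.97% of 42354 in piglet 2383 (1.84 to 2.11). Piglet 512 lay above both AA piglets and the other GG piglets far below them, so the groups overlapped. The libraries of 2134 and 2383, which are low, had the largest and the smallest listed total. AA piglets had a mean of 8.19% ± 0.0634 (SD, n = 2) and GG piglets one of 4.28% ± 4.27 (SD, n = 3), a difference of -3.92 percentage points (two-sided exact permutation test over the 10 splits of the piglets, p = 0.4, where the smallest possible p is 0.1, and 0.8 after Benjamini-Hochberg adjustment over the 2 shares tested). GG piglet 512 had 0.961 percentage points more than its AA sib 524, and GG piglet 2134 differed from its AA sib 2129 by -6.49 points. The share also depends on the other counts of each list and on where reads were placed. In tissue, fewer mitochondria-rich cells and less mitochondrial RNA per cell cannot be told apart either. No cause of the low share in 2134 and 2383 was tested.

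**Figure D3:**
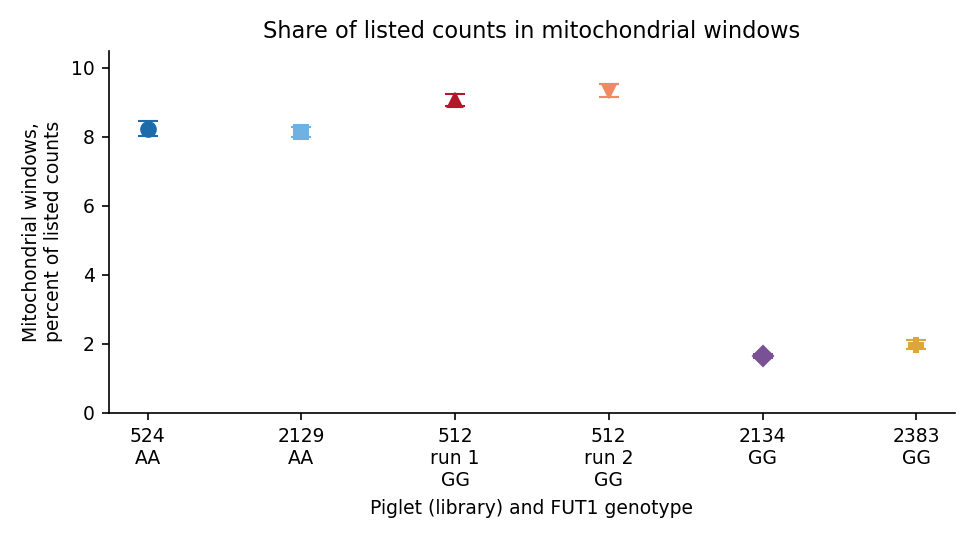
Percent of all listed counts that lay in mitochondrial windows (vertical axis, from 0) in each of the 6 libraries, with 95% Wilson intervals that cover counting error only. Both AA libraries lie at 8.24% and 8.15%, both runs of GG piglet 512 at 9.07% and 9.34%, and GG piglets 2134 and 2383 at 1.66% and 1.97%.

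Sequence shared with nuclear windows bears on this share. Nuclear chromosomes carry copies of mitochondrial sequence, and windows that share a stretch of 25 bases with a nuclear window of the same library held 78.6% of mitochondrial counts in piglet 524, 96.5% in 2129, 93.0% and 86.9% in the runs of 512, 76.5% in 2134 and 61.2% in 2383. In every library these include the highest window, in the control region, which holds a tandem repeat. It shared a stretch with 7 nuclear windows in 2129 but with 1, of 5 counts, in 2383. That window alone made up 14.1% of mitochondrial counts in 2129 and 40.2% in 2383. The windows that share no such stretch, an alternative chosen after seeing the data, held 1.76% of listed counts in 524, 0.288% in 2129, 0.917% in 512, 0.389% in 2134 and 0.765% in 2383. The AA piglets then lay at either end and the GG piglets between them, and the difference was -0.335 percentage points (exact permutation p = 0.8). Since this step leaves out a different part of each library, its size cannot be set against that of the full share. Leaving out the windows whose whole sequence is also listed on a nuclear chromosome, of which there was 1 in each of 2129, 2134 and 2383, gave -3.85.

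The control region held the highest window in every library. Its window at 16039 to 16239 (16040 to 16240 in piglet 2383) had 1037 counts in piglet 524, 1455 in 2129, 1258 and 1343 in the runs of 512, 609 in 2134 and 335 in 2383. It is the only window besides that over tRNA-Thr whose central base recurred within 2 bases in all 6 libraries. It made up 22.3% of mitochondrial counts in 524, 14.1% in 2129, 14.4% and 15.98% in the runs of 512, 19.05% in 2134 and 40.2% in 2383. Piglet 2383, with the fewest mitochondrial counts, was the most concentrated on it. Without it the mitochondrial share would be 6.398%, 7.004%, 7.76%, 7.85%, 1.34% and 1.18% in the same order of libraries, with the same libraries high and low.

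The central base of that window lies 3 bases before a tandem repeat (2 bases in 2383). The repeat is made of 29 full copies of the unit tacacgtgcg and runs over 296 bases, from 16142 to 16437 of the record. Its first stretch of 25 bases occurs at 28 places of the array, so reads inside it cannot be given 1 place. The next listed window in piglets 524, 2129, 2134 and in run 1 of 512 was centred 40 to 50 bases after the end of the repeat. The unit, searched on both strands as tacacgtgcg, was found in 12 of 487 mitochondrial windows (2.46%) and in 24 of 52778 nuclear windows (0.0455%). Nuclear windows that share a stretch of 25 bases with the control region window had at most 27 counts each and 87 together in any 1 library, against 1455 in the window itself there (piglet 2129).

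In all, the control region had 1426 scaled counts in piglet 524, 1565 in 2129, 1577 in 512, 578 in 2134 and 534 in 2383. A scaled count is the count divided by a factor for the size of the library. Piglet 512 lay with the AA piglets, and 2134 and 2383 below them. The log2 difference between GG and AA was -0.92 (SE 0.57, limma adjusted p = 0.537). Within the mitochondrial counts the control region took 19.5% ± 5.45 (SD, n = 2) in AA piglets, and in GG piglets it took 25.9% ± 13.3 (SD, n = 3). The higher GG mean rests on 2383, since without it that mean is 18.3%, below the AA mean. When libraries were scaled to their mitochondrial counts, the log2 difference turned to 0.32.

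Across genes, 28 of the 39 mitochondrial features (37 genes, the control region and the stretches between genes) had at least 10 counts in at least 2 piglets and were tested, in 1 limma fit with the nuclear regions. None was called at an adjusted p under 0.05, and none of the 2798 features of the lists was either (0%). With libraries scaled by their listed totals, 5 of the 28 were called (ATP8, ND4L, ND6, tRNA-Asn and tRNA-Leu-CUN), beside 1.86% of all features, and with no filter on low counts 10 of 33 were, beside 0.377% of 24690 features. In those 2 fits limma gave all features 1 common spread around the trend, with 8394 and 74070 degrees of freedom against 6.22 in the fit reported. The mean log2 value was lower in GG for 25 of the 28 and higher for 3, whereas it was lower for 41.7% of all features tested. The 28 features share 1 molecule and the same piglets, so here and below their number is not one of independent observations. The median log2 difference of the 28 was -1.38, beside 0.199 for all features. At an unadjusted p under 0.05 were 3 of the 28, all lower in GG (12S rRNA, tRNA-Asn and ATP8), beside 8.58% of all features in either direction and 2.11% lower in GG. In 4 of the 28 every GG piglet lay below both AA piglets (ATP8, ND3, 12S rRNA and tRNA-Asn), beside 13.1% of all features, so this count is near the background. In ATP8, ND3 and tRNA-Asn the place of 512 depended on windows centred in a neighbouring gene or stretch, as given below. 12S rRNA had 19 counts or fewer per library. In none of the 28 did every GG piglet lie above, beside 21.3%. In the sib pair of 512 and 524, 22 of the 28 were higher in 512, with a median log2 difference of 0.79, beside 68.5% of all features and a median of 0.452, so this count is near the background. In the pair of 2134 and 2129, 26 of the 28 were lower in 2134, with a median of -1.99, beside 42.5% of all features and a median of 0.185. Without piglet 512, 18 of 23 tested mitochondrial features had an unadjusted p under 0.05, beside 11.6% of the 1808 features of that fit, with 0 called, and the median was -2.29 beside 0.0102. Without piglet 2383 the median was -0.57.

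**Figure D4:**
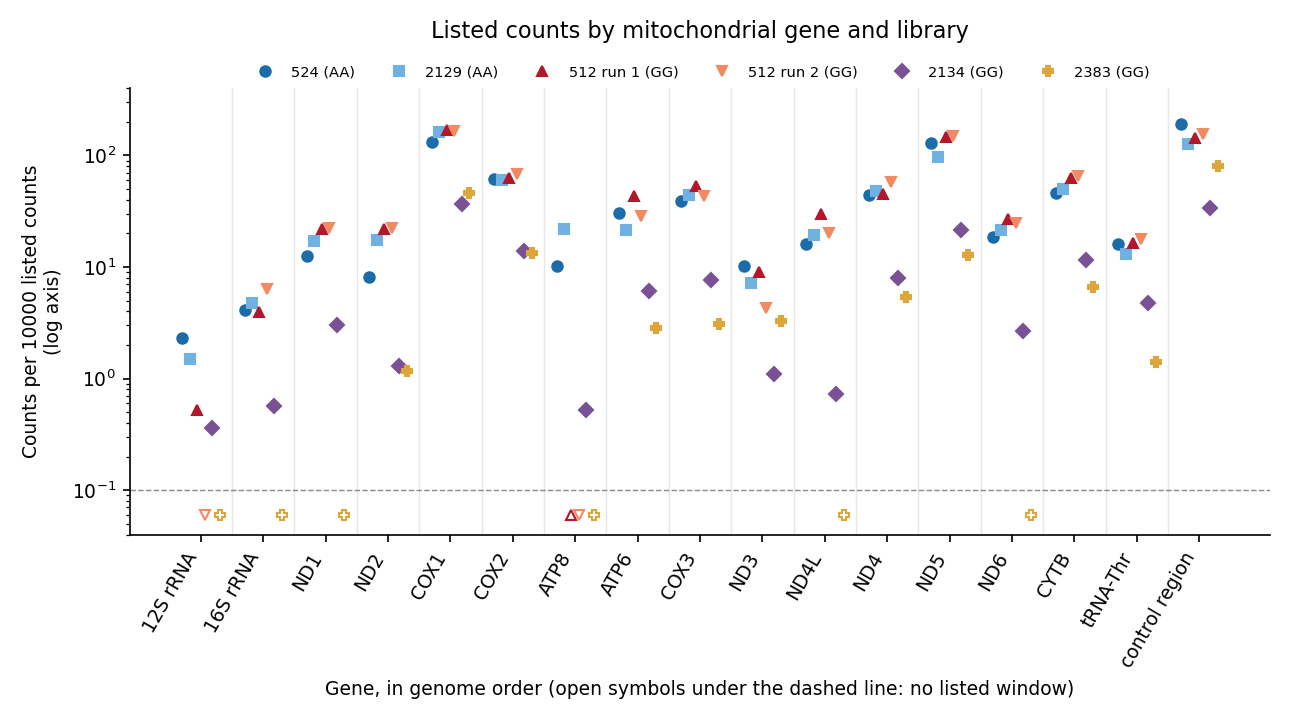
Counts per 10000 listed counts (log axis) for the 2 rRNA genes, 13 mRNA genes, tRNA-Thr and the control region in genome order, 1 symbol per library; open symbols under the dashed line have no listed window. Piglets 2134 and 2383 lie below both AA piglets in each feature drawn, and the runs of 512 lie among or above the AA piglets except, in 1 or both runs, at 12S rRNA, 16S rRNA, ATP8 and ND3.

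Genes of complex I, the NADH dehydrogenase that starts the respiratory chain, were lower on average in GG in 7 of 7 cases. None was called, and of all features 41.7% were lower and 0% called. The 7 genes share 1 molecule. In the pair of 512 and 524, 6 of them were higher in 512, beside 68.5% of all features. In the pair of 2134 and 2129, 7 were lower in 2134, beside 42.5%. ND5, a proton-pumping subunit, had 956 scaled counts in piglet 524, 1189 in 2129, 1553 in 512, 366 in 2134 and 84.3 in 2383, a log2 difference of -1.55 (SE 1.13, limma adjusted p = 0.589). The value of 2129 leaves out a window of 527 counts centred 5 bases before ND5. ND4, another membrane subunit, had 325, 584, 543, 137 and 35.9 scaled counts in the same order of piglets, a difference of -1.64. In both genes piglet 512 was as high as AA piglets and the other GG piglets were below them. ND1, at the junction of the membrane arm and the peripheral arm, had 92.2, 212, 234 and 51.5 scaled counts and no window in 2383. ND2 had 60.6, 214, 234, 22.2 and 7.81. ND6, the only mRNA gene read from the other strand, had 137, 266, 272 and 46.1 scaled counts and no window in 2383. The differences of these genes were -1.93, -1.66 and -2.35, and in each piglet 512 was the highest of the 5. ND4L, whose gene overlaps the start of ND4, had 118, 238, 268 and 12.4 scaled counts and no window in 2383, with a difference of -2.78 (SE 1.65, limma adjusted p = 0.535).

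ND3 is a small subunit of complex I whose gene lies between those of tRNA-Gly and tRNA-Arg. It had 75.0 scaled counts in 524 and 88.0 in 2129 against 70.9 in 512, 18.6 in 2134 and 21.9 in 2383. By central base every GG piglet lay below both AA piglets, 512 only just. In run 2 of 512 a window of 41 counts was centred at 9458, in tRNA-Gly and 19 bases before ND3. It was not counted in ND3, whereas windows centred on the first base of ND3 held 62 counts in 2129 and 36 in run 1. The place of 512 below the AA piglets thus depends on where windows were centred. The log2 difference was -1.37 (SE 0.59, limma adjusted p = 0.535). Among mRNA genes with counts in both, the runs of piglet 512 differed most here, with 86 counts in run 1 and 39 in run 2, a log2 ratio of size 1.04 per listed count. In tRNA-Gly, which was given the window at 9458, the order was the other way, with 8 counts in run 1 and 47 in run 2.

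Complex IV, cytochrome c oxidase, took the largest part of the mRNA counts in piglets 2129, 2134 and 2383, and complex I in piglets 524 and 512. In 2129 complex IV had 3399 counts and complex I 2886. There a window of 527 counts centred 5 bases before ND5 was given to tRNA-Leu-CUN. Another of 61 counts, centred 1 base before COX2, was given to tRNA-Asp. The order in 2129 thus depends on how such windows are assigned. COX1, which encodes the catalytic subunit with its haem and copper centres, had 973 scaled counts in 524, 2003 in 2129, 1759 in 512, 632 in 2134 and 304 in 2383. The AA piglets lay further apart from each other than AA piglet 524 and GG piglet 2134 did. Its log2 difference was -1.001 (SE 0.79, limma adjusted p = 0.599), which turned to 0.24 when libraries were scaled to their mitochondrial counts. COX2 had 456, 745, 688, 236 and 87.4 scaled counts in the same order of piglets, a difference of -1.26. COX3, a structural subunit of the complex, had 290, 538, 509, 131 and 20.3, a difference of -1.81. As a share of mitochondrial counts complex IV was steady, at 28.1% in 524, 32.8% in 2129, 30.4% in 512, 35.2% in 2134 and 31.7% in 2383. Complex I took 28.9%, 27.9%, 32.7%, 23.02% and 11.5% of mitochondrial counts in the same order, and piglet 2383 had the lowest.

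CYTB, the 1 mitochondrial gene of complex III, which passes electrons to cytochrome c, had 342 scaled counts in 524, 620 in 2129, 679 in 512, 198 in 2134 and 43.7 in 2383. Piglet 512 was again the highest and 2383 the lowest, with a log2 difference of -1.34 (SE 1.07, limma adjusted p = 0.5997).

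ATP6 encodes the subunit through which protons reach the ATP synthase, and ATP8, whose gene overlaps it, encodes a small partner. ATP6 had 224 scaled counts in 524, 263 in 2129, 384 in 512, 105 in 2134 and 18.7 in 2383, a log2 difference of -1.39. ATP8 had 76.4 in 524, 272 in 2129 and 8.87 in 2134, and no window in 512 or 2383, so every GG piglet lay below both AA piglets. Its difference was -5.04 (SE 0.81, limma adjusted p = 0.315), and the full-sib pair as a block, which leaves out piglet 2383, made it the only feature called (-4.96, limma adjusted p = 0.0268). Over 18 alternatives the adjusted limma p of ATP8 ran from 4.31e-18 to 0.783, the lowest with no filter on low counts.

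The size of the ATP8 difference depended on how windows were given to genes, though not on piglet 512 alone: without 512 it was -4.48 (limma adjusted p = 0.367). In AA piglet 2129 a window of 281 counts was centred 46 bases inside ATP8 (7729 to 7929). In run 2 of piglet 512 a window of 345 counts was centred at 7754 (7654 to 7854), 26 bases before the end of tRNA-Lys, the gene next to ATP8, and in run 1 a window of 100 counts was also centred in tRNA-Lys. From tRNA-Lys to ATP6 as 1 stretch, the libraries had 42.2 counts per 10000 listed counts in 524, 44.3 in 2129, 53.7 and 67.2 in the runs of 512, 6.64 in 2134 and 2.83 in 2383. On that stretch piglet 512 was the highest, not listed at 0. With each count spread evenly from its window's centre to the next centre, an alternative chosen after seeing the data, the difference of ATP8 was -1.71 and its limma adjusted p was 0.538, and none of 32 features had an unadjusted p under 0.05, beside 8.49% of all features.

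The 13 mRNA genes, which share 1 molecule, thus all had a lower mean in GG, with 0 called and a median difference of -1.64. Of all features 41.7% were lower and 0% called, with a median of 0.199. In the sib pair of 512 and 524, 11 of the 13 were higher in the GG piglet (68.5% of all features were), and in the pair of 2134 and 2129, 13 of 13 were lower in it (42.5% of all features were). Their sum took 67.5% of mitochondrial counts in 524, 72.2% in 2129, 74.0% in 512, 69.2% in 2134 and 48.0% in 2383. Only 2383 stood apart, and the mean difference was -6.13 percentage points (69.9% ± 3.34 in AA, n = 2, and 63.7% ± 13.9 in GG, n = 3, exact permutation p = 0.9, or 0.9 adjusted over the 2 shares tested). Without piglet 2383 it was 1.76.

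**Figure D5:**
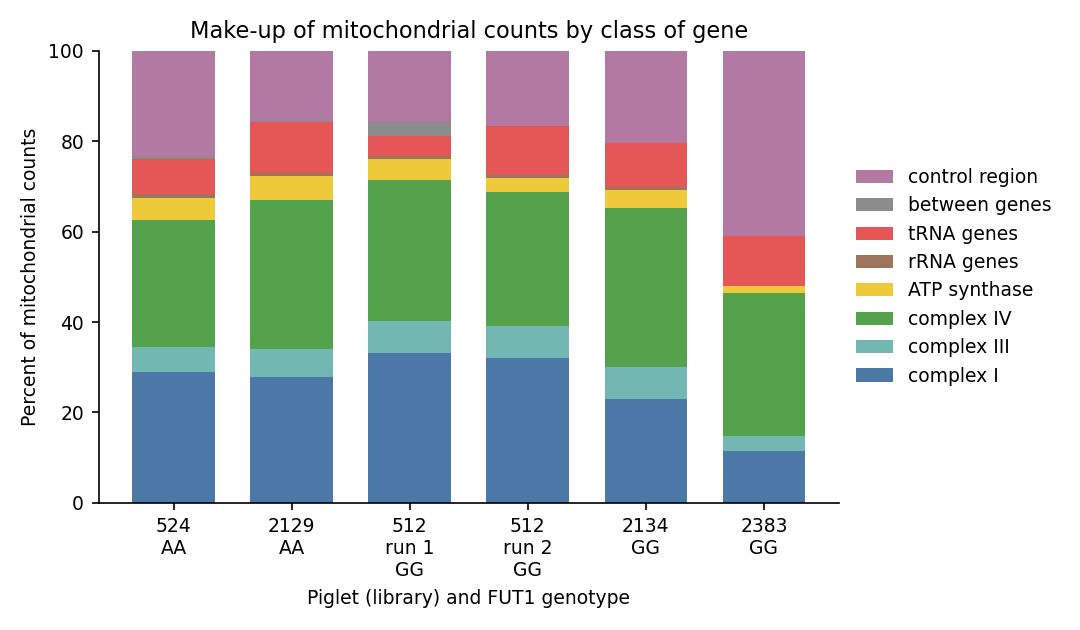
Make-up of the mitochondrial counts of each library in percent (stacked to 100), by respiratory complex, rRNA genes, tRNA genes, stretches between genes and control region. The bars of 5 libraries are alike, with mRNA genes at 67.5% to 76.1%, and in piglet 2383 the control region takes 41.0% and complex I 11.5%.

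Both rRNA genes were low. They make up 15.1% of the record and held 27 of the 487 windows (5.54%), with 0.776% of mitochondrial counts in 524, 0.763% in 2129, 0.493% and 0.678% in the runs of 512, 0.563% in 2134 and none in 2383. In 12S rRNA the counts were 13 in 524, 19 in 2129, 5 and 0 in the runs of 512, 7 in 2134 and 0 in 2383. Its log2 difference was -1.95 (SE 0.50, limma adjusted p = 0.535) at 19 counts or fewer per library. 16S rRNA had 23, 60, 38, 57, 11 and 0 counts in the same order of libraries, a difference of -1.68. It held 1 of the few recurrent places: a window centred at 2643, 25 bases before the end of the gene, was listed in 5 libraries, all but that of 2383, with 8, 10, 7, 13 and 6 counts. The lists are labelled as unannotated sequence, and whether rRNA reads had been taken out beforehand is not given in the sources used here.

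Per length the order of genes was different from that of the counts. COX1 led the mRNA genes with 12.9% ± 1.96 of mitochondrial counts per kilobase (SD over 5 piglets), followed by COX2 with 10.8% ± 0.866. ND5 followed with 6.90% ± 2.11, COX3 with 5.49% ± 2.001, CYTB with 5.11% ± 1.31, ND4L with 5.06% ± 4.09, ATP6 with 4.51% ± 1.54 and ATP8 with 4.19% ± 5.68. ND4 and ND6 both stood at 3.53% (± 0.897 and ± 2.15), ND3 at 2.98% ± 1.22, ND1 at 1.64% ± 0.984 and ND2 at 1.33% ± 0.794. Neighbours in this order from ND5 down to ND3, and ND1 and ND2, differed by less than the larger of their SDs. Among the 32 features with a window, the rRNA genes were last, 16S rRNA at 0.251% ± 0.152 per kilobase and 12S rRNA at 0.148% ± 0.127, and the control region stood above the mRNA genes at 17.5% ± 7.78.

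Transfer RNA genes, which punctuate the precursor, held 47 windows. Of the 22 genes, 16 held the centre of a window in at least 1 library. The other 6 held none, though a neighbour's window may cover them (tRNA-Phe, tRNA-Val, tRNA-Leu-UUR, tRNA-Met, tRNA-Tyr and tRNA-Ser-AGY). They took 7.67% of mitochondrial counts in 524, 11.3% in 2129, 7.57% in 512, 9.85% in 2134 and 11.03% in 2383. Of the 11 tested, 8 were lower and 3 higher in GG, with 0 called and a median difference of -1.04. Of all features 41.7% were lower and 0% called, with a median of 0.199. All of the 11 but tRNA-Thr were listed in only some piglets. A piglet without a window was given 2 counts, so these directions depend on where windows were centred. tRNA-Thr was the only one listed in every library, always through the window shown above, centred at 15351 or within 2 bases of it and so 19 bases before the end of the gene. It had 90 counts in 524, 165 in 2129, 159 and 160 in the runs of 512, 92 in 2134 and 6 in 2383, which is a log2 difference of -1.36 (SE 1.14, limma adjusted p = 0.615). The runs of 512 gave almost the same count there.

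The other tRNA genes with high counts were listed in some libraries and not in others. tRNA-Asn had 161 counts in 524, 253 in 2129, none in either run of 512, 70 in 2134 and 25 in 2383, a log2 difference of -3.71 (SE 1.40, limma adjusted p = 0.535). It lies in the cluster of 5 tRNA genes from tRNA-Trp to tRNA-Tyr next to the origin of the other strand. In that cluster run 2 of 512 had its window of 257 counts centred in tRNA-Trp, and run 1 had a window of 272 counts centred at 5021, between tRNA-Trp and tRNA-Ala. The cluster as 1 stretch had 35.7 counts per 10000 listed counts in 524, 24.6 in 2129, 29.4 and 28.6 in the runs of 512, 7.21 in 2134 and 9.68 in 2383, so piglet 512 lay between the AA piglets. tRNA-Lys had 10 counts in 524, 5 in 2129, 100 and 345 in the runs of 512 and none in 2134 or 2383. tRNA-Leu-CUN had 527 counts in 2129, 6 in run 2 of 512, 25 in 2134 and none elsewhere. The window of 527 counts was centred 3 bases before the end of that gene, just ahead of ND5.

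Within genes, the highest window lay at different places in different libraries. In COX1 it was centred at 6519 in 524 (319 counts), 6084 in 2129 (1433), 6072 and 5783 in the runs of 512 (472 and 731), 6764 in 2134 (192) and 6768 in 2383 (56). Only the last pair, and 2129 with run 1 of 512, lay near each other. In ND5 it was centred at 12020 in 524 (137 counts), 12001 and 11998 in the runs of 512 (295 and 283) and 12031 in 2134 (69), so these libraries lay close together, while 2129 had it at 12963 (365) and 2383 at 12610 (21). The larger window of 2129 centred at 11754 (527), 5 bases before ND5, was given to tRNA-Leu-CUN and is left out here. In COX3 a window centred within 2 bases of 8818 was listed in 5 libraries, with 48 counts in 524, 470 in 2129, 285 and 389 in the runs of 512 and 34 in 2134. In CYTB a window centred within 2 bases of 15043 was also listed in 5, with 8, 102, 28, 22 and 9 counts in the same order. In ND4L a window centred within 2 bases of 10117 was listed in 5, with 35, 49, 39, 38 and 14 counts. Piglet 2383 lacked all of these. Over all windows, 2 places recurred in 6 libraries, 4 in 5 and 7 in 4.

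The runs of piglet 512 give the spread between sequencings of 1 animal. They had 83 and 85 windows, of which 18 had the same start and 32 lay within 2 bases. Of 26 features listed in either run, 21 were listed in both, with a median size of the log2 ratio of 0.126 and a highest of 4.64, in tRNA-Trp (11 and 257 counts). Over the 7 tRNA genes among them the median was 0.279. The other 5 were listed in 1 run only, among them 12S rRNA and the stretch between tRNA-Trp and tRNA-Ala. For windows of the same start the median was 0.221 and the highest 2.94.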

How the data were processed

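Small RNA was sequenced from duodenal tissue kept in liquid nitrogen, with total RNA extracted with Trizol, per the labels' protocols. The authors deposited, for each library, a list of genome stretches with a whole-number count, a place and a sequence, per the file headers. Since each list stops at 5 counts, no count model was used. The aligner, the genome build and the rule that gathered reads are, for these lists, not given in the sources used here. The members and lists were chosen with earlier results of these data known.

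Windows were placed on the deposited mitochondrial record. The 13 mRNA genes were found as open reading frames, the tRNA genes by their structure and the rRNA genes as the stretches between tRNA genes. mRNA genes were named by their order in the Sscrofa11.1 RefSeq table. A window belonged to the gene that holds its central base. Of the 5 mRNA genes with a window at their first base, 1 is not reported here at that level. All features were accounted for, with values per library for mRNA and rRNA genes and the control region, and tRNA genes as a group with the 3 of highest mean count (tRNA-Thr, tRNA-Asn and tRNA-Lys). The rule for windows was the one of highest mean scaled count in a gene. tRNA-Leu-CUN, the highest window per library and the recurrent windows were added after their values were seen.

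Nuclear windows were merged into regions where they overlapped. Counts were scaled by TMM (trimming 30% of ratios and 5% of abundances), with size factors from 0.640 to 1.76. Features not listed in a piglet were given 2 counts, 1 was added before log2, and features with at least 10 counts in at least 2 piglets were tested by limma 3.58.1 (R 4.3.3) with a mean-variance trend, calling Benjamini-Hochberg adjusted p-values under 0.05. The added count understates the changes of low features. The limma step was run on simulated counts as a check of the code only. Features were drawn independently, with large changes and a spread between piglets that was set, not taken from these data. It gives no measure of power or error in these piglets. Single shares were compared by two-sided exact permutation over piglets. Sibs are named in the labels; over 2798 features the deviations of sibs from their group means correlated at r = 0.198. Python 3.11.15, NumPy 2.4.6, pandas 2.3.3, SciPy 1.17.1, Biopython 1.88 and matplotlib 3.10.9 were used.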

Additional observations from a re-analysis of the deposited data

Results flagged for a closer look

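The mitochondrial share of listed counts moved in opposite directions in the 2 sib pairs. GG piglet 512 had 0.961 percentage points more than its AA sib 524, and GG piglet 2134 differed from its AA sib 2129 by -6.49 percentage points. With 1 pair each way, the difference between the pairs was not tested.

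The lists also hold a record of the whole mitochondrial sequence, which the comparisons above did not use. It had 7 counts in piglet 524, 9 in 2129, 8 and 9 in the runs of 512, and was not listed in 2134 or 2383. What these counts refer to is not given in the sources used here.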

How the results depend on the processing

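With 1 piglet left out in turn, the share of listed counts in mitochondrial windows differed by -6.38 to -2.61 percentage points between GG and AA, and the mRNA share of mitochondrial counts by -11.3 to 1.76, turning to higher in GG without piglet 2383. Mitochondrial features called by limma stayed at 0 in each of these, and all features called ranged from 0 to 4. The number of mitochondrial features called rose from 0 to 5 with scaling by listed totals and to 10 with no filter on low counts, and the number of all features called rose to 52 of 2798 (32 higher and 20 lower) and 93 of 24690 (67 higher and 26 lower). Scaling to mitochondrial counts called 0 mitochondrial features and 4 of all, and moved the median of all features from 0.199 to 1.35 and that of the mitochondrial features from -1.38 to -0.16. In these 3 fits limma used 8394, 74070 and 8394 degrees of freedom. The full-sib pair as a replicate block, without piglet 2383, called 1 feature, which was ATP8, at 1 residual degree of freedom, and changed no other call.

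Over 17 single genes and their alternatives, 304 values kept direction and side of the threshold, 12 passed it and 2 turned, namely COX1 (0.24) and the control region (0.32), both when scaled to mitochondrial counts. The planned edgeR and DESeq2 fits were not run, because the lists leave out counts under 5. The counts of piglet 2383 limit its genes most, with 834 mitochondrial counts in all.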
